A study of Mus musculus with 2 samples.

Results

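Among mouse thymic invariant natural killer T (iNKT) cells carrying the genes of the iNKT1 lineage, one group of cells held Izumo1r transcripts and no Ccl5 transcripts. Izumo1r encodes FR4, a folate receptor-like surface protein found on antigen-experienced and regulatory T cells, and Ccl5 encodes a chemokine made by effector T cells and NK cells. The cells were selected on these 2 genes, by at least 2 Izumo1r UMIs (unique molecular identifiers, each standing for 1 captured transcript) and 0 Ccl5 UMIs. The gate held 538 of the 5758 cells of hashtag rows 12, 14, 16 and 18 that had at least 1000 detected genes and at most 5% mitochondrial UMIs. Neither gene was tested, and their levels only describe the gate: Izumo1r lay between 730 and 887 CPM (UMIs of the gene per 1000000 gene UMIs of a group of cells) in the members of the 4 rows, and between 67.7 and 125 CPM in the other cells.

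The study compared C57BL/6 control (Ctrl) mice with T-KO mice, in which a floxed Kidins220 gene is deleted by pLckCre, a Cre transgene that the Lck promoter drives in T-lineage cells. For each genotype, 2 pools of 4 thymi were made, and from each pool cells were sorted as stage 0 (TCRβ+, CD1d tetramer+, CD24+, NK1.1-) or as stage 3 (TCRβ+, CD1d tetramer+, NK1.1+, CD24-, CD44+). The 8 sorted populations were marked with hashtag antibodies, mixed, and run as 1 droplet library of transcript 5′ ends with 1 library of hashtags. The labels give hashtags 1 to 8 while the deposited rows in use are numbered 11 to 18, and the sources used here do not pair one with the other. The stage and genotype of each row could not be read from the labels, and Ctrl was not set against T-KO.

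iNKT cells carry a nearly invariant αβ T cell receptor (TCR), built from Trav11 and Traj18 and a few TRBV segments, that recognises lipids on CD1d. They mature in the thymus under PLZF, the transcription factor encoded by Zbtb16, and settle into lineages that make interferon-γ (iNKT1, under T-bet), IL-4 (iNKT2) or IL-17 (iNKT17). Along the iNKT1 path PLZF and ICOS decline while NK receptors, cytotoxic granule genes and Ccl5 are gained.

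The 4 rows carried the iNKT1 genes. Klrb1c, which encodes NK1.1, lay at 382, 430, 328 and 444 CPM in rows 12, 14, 16 and 18 and at 6.57 CPM or less in rows 11, 13, 15 and 17. Tbx21, which encodes T-bet, lay between 168 and 216 CPM against at most 5.14 CPM, and Cd24a, the marker of the immature stage, between 23.3 and 34.2 CPM against 313 to 365 CPM. Within the 4 rows, the members themselves held Klrb1c at 438, 559, 298 and 484 CPM and Tbx21 at 242, 179, 131 and 162 CPM.

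Members made up 98 of 1752 cells in row 12 (5.59%, 95% exact Clopper-Pearson interval 4.56 to 6.77), 164 of 2162 in row 14 (7.59%, 6.50 to 8.78), 72 of 577 in row 16 (12.5%, 9.89 to 15.5) and 204 of 1267 in row 18 (16.1%, 14.1 to 18.2). The intervals cover counting error only. Rows 16 and 18 held larger shares than rows 12 and 14, and these shares follow from the gate. Of the members, 274 (50.9%) stood at the threshold with exactly 2 Izumo1r UMIs, 117 had 3, 61 had 4 and 86 had 5 or more.

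Members held more UMIs per cell than the other cells of their rows. Their median was 3604, 3476, 4483 and 4026.5 UMIs per cell in rows 12, 14, 16 and 18, against 3289.5, 3249, 3689 and 3605 in the other cells, higher in all 4 rows. A gate that asks for UMIs of a gene can itself favour cells with more UMIs, and its part here was not tested. The median mitochondrial share differed by little (1.63% to 1.74% of UMIs in members, 1.71% to 1.76% in other cells). Free RNA was gauged in 763 cells with at least 5 Cd79a UMIs, a B cell receptor gene: at a median of 6078 UMIs, 22 of them (2.88%, interval 1.82 to 4.33) held any Izumo1r UMI and 3 (0.393%) held 2 or more. Among the cells of the 4 rows, at a median of 3400.5 UMIs, 1715 (29.8%) held at least 1 and 725 (12.6%) at least 2.

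To ask what else set the members apart, UMIs were summed over members and over all other cells within each row, and the 8 sums were compared by edgeR's quasi-likelihood test with the row as a block. After Benjamini-Hochberg adjustment at 0.05, 387 of 9254 genes were called (4.18%), 210 of them higher in members (2.27%) and 177 lower (1.91%). Counts of called genes in the lists below are to be read against these shares. The direction was the same in all 4 rows for 360 of the 387. All members lay above, or all below, all other sums for 806 of the tested genes (8.71%), and 240 of these were called. Because members and other cells came from the same 4 rows of 1 library, p-values measure only the spread between these rows. Without row 18, which held the most members, 145 genes were called, 141 of them among the 387 and in the same direction. Where members and other cells were taken from the same range of UMIs per cell, 154 genes were called, 131 of them shared, and after thinning each cell to 2000 UMIs 188 were called, 159 of them shared. Of 104 called genes followed singly, 80 lost the call or turned in at least 1 of 20 alternatives, 78 of them in one other than leaving out a row. Beside single genes below, chiefly the losses on leaving out a row are given.

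**Figure D1:**
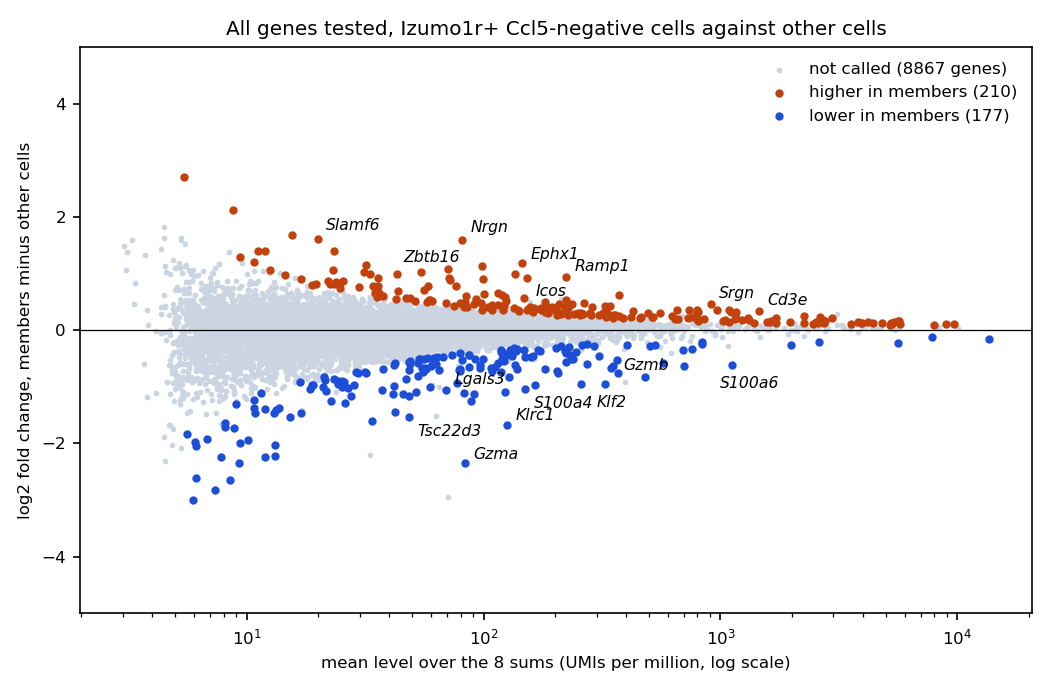
Each point is 1 tested gene, with its mean level over the 8 sums in CPM on a log axis and its log2 fold change of members over other cells on the vertical axis, and called genes are coloured. Of 9254 genes, 210 were called higher and 177 lower in members, and Ncr1, at 0 in members, lies outside the axis.

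Zbtb16 had the highest fold change among the tested transcription factors of iNKT lineages. It lay at 130, 132, 137 and 138 CPM in members of rows 12, 14, 16 and 18 and at 60.3, 69.7, 62.1 and 60.02 CPM in the other cells. The members' values differed little between rows and did not overlap those of the other cells (log2 fold change 1.13 ± 0.11 SE, edgeR adjusted p = 1.9e-09, n = 4 rows). Tox, a nuclear factor induced by TCR signals during thymic selection, lay at 96.4, 94.6, 84.8 and 105 CPM against 43.9, 51.5, 40.2 and 49.0 CPM and rose by 1.08 ± 0.13 on the log2 scale (adjusted p = 1.6e-07). The groups did not overlap for Tox either.

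Id3, an inhibitor of E protein transcription factors that TCR signals induce, lay at 80.8, 106, 175 and 151 CPM in members and at 58.9, 56.0, 95.4 and 75.3 CPM in other cells (0.91 ± 0.11, edgeR adjusted p = 4.3e-07). It was higher in members within each row, though row 12 members lay below the other cells of row 16. Its relative Id2 rose by 0.36 ± 0.04, Lef1, a factor of immature and memory-like T cells, by 0.52 ± 0.10, and Myb, active in early thymocytes, by 0.99 ± 0.19. Bcl11b, which maintains T cell identity, fell by 0.63. Without row 18 the calls of Myb (adjusted p = 0.11) and Bcl11b (0.11) were lost, and that of Lef1 was lost in 4 of 20 alternatives (highest adjusted p = 0.37), thinning among them.

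Among the 25 tested transcription factors of iNKT lineages, 5 rose and 1 fell, with a median log2 fold change of 0.09 against 0.01 over all tested genes. Tbx21 and Gata3 were not called, unlike Zbtb16, which is also listed on the iNKT1a and iNKT2 side. Tbx21 lay at 242, 179, 131 and 162 CPM in members and 214, 211, 175 and 176 CPM in other cells (−0.08 ± 0.09, edgeR adjusted p = 0.74). Gata3, a factor of iNKT2 cells, lay at 88.6, 70.9, 84.8 and 92.2 CPM against 92.2, 85.3, 80.8 and 92.4 CPM (−0.03 ± 0.12, adjusted p = 0.95). Both genes overlapped between the groups. Of the 16 tested genes of the iNKT1a and iNKT2 side, a list that holds genes already known to lead these cells in earlier results of the same data, 8 rose and 1 fell (median 0.52), and of 13 iNKT1 genes 2 rose and 3 fell (median −0.08).

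**Figure D2:**
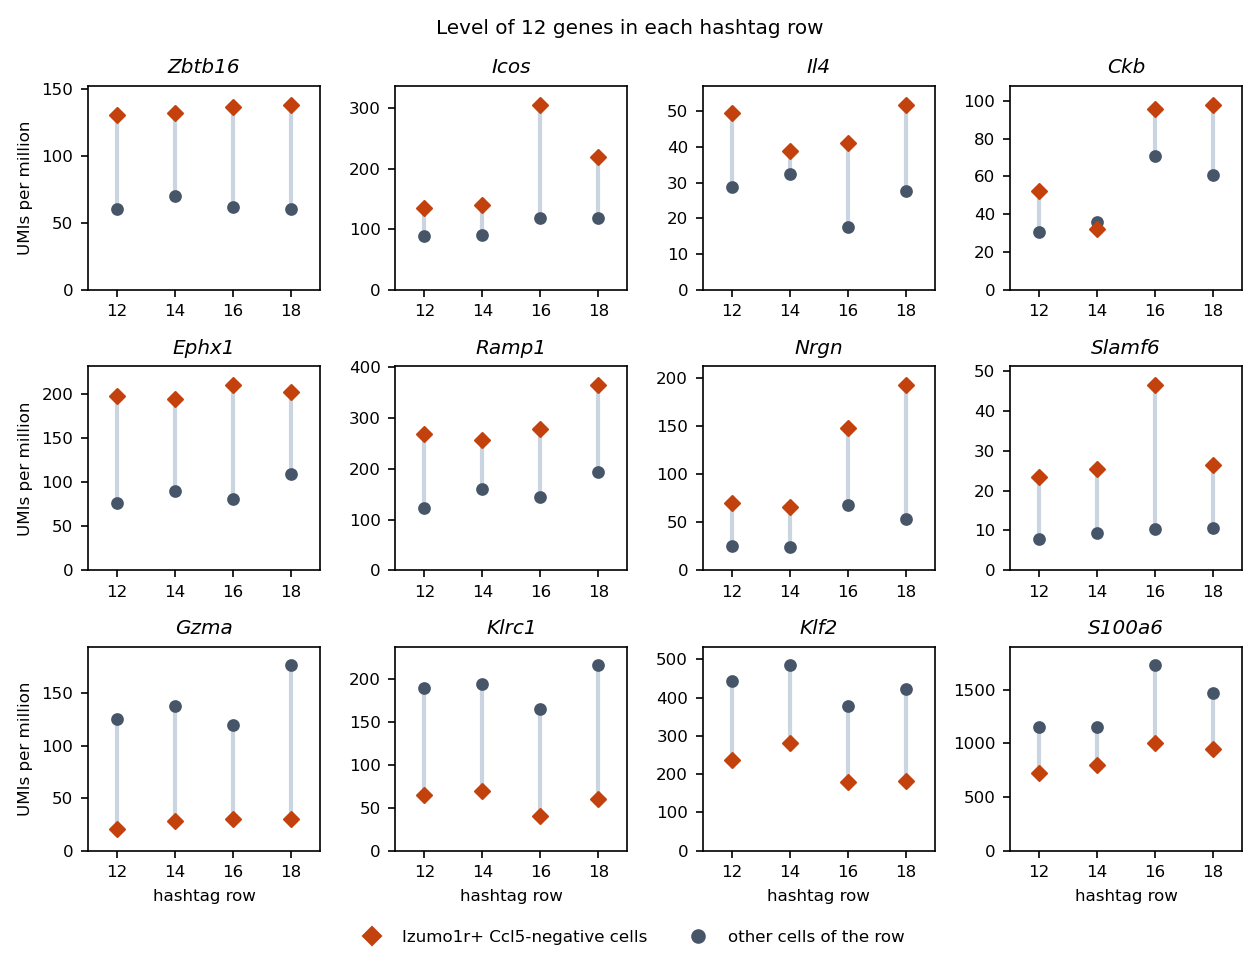
Level in CPM of 12 genes, each panel with its own axis from 0, in members (diamonds) and other cells (circles) of each hashtag row, joined by a line. Zbtb16 was at 130 to 138 CPM in members and at 60.02 to 69.7 CPM in other cells, while Gzma was at 20.8 to 30.1 CPM against 120 to 176 CPM.

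The signature cytokine of iNKT2 cells was higher in members, at low levels. Il4 lay at 49.5, 38.8, 41.0 and 51.9 CPM in members and at 28.9, 32.5, 17.7 and 27.6 CPM in other cells (0.77 ± 0.18, edgeR adjusted p = 0.0062). The members were above the other cells in every row without overlap, but the call was lost without row 18 (adjusted p = 0.22) and after thinning (0.35). Ifng, the cytokine of iNKT1 cells, spread from 47.3 to 213 CPM in members and from 102 to 187 CPM in other cells and was not called (−0.54 ± 0.37, adjusted p = 0.64). Row 14 alone held more Ifng in members. Of 8 tested cytokines and chemokines 1 rose and 1 fell (median −0.21); the one that fell was Ccl4, a chemokine of activated effector cells, by 1.37, and its sign turned (0.30) when the gate asked for 1 Izumo1r UMI. Ckb, the brain-type creatine kinase and a marker of the group, lay at 52.1, 32.1, 95.8 and 98.0 CPM against 30.7, 36.0, 70.9 and 60.8 CPM (0.52 ± 0.15, adjusted p = 0.033), higher in 3 of 4 rows. That call was lost without row 12 (adjusted p = 0.14) and without row 18 (0.57).

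Among the called costimulatory and SLAM-family receptors were Icos and Slamf6, which rose, and Cd244a, which fell from few UMIs. Icos, the inducible costimulator, lay at 136, 140, 306 and 219 CPM in members and 88.4, 91.4, 118 and 118 CPM in other cells (0.93 ± 0.10, edgeR adjusted p = 4.0e-08). Its member level varied by row, being highest in row 16, and did not overlap that of the other cells. Slamf6, a homotypic receptor needed for iNKT selection, lay at 23.5, 25.3, 46.5 and 26.5 CPM against 7.76, 9.38, 10.4 and 10.5 CPM (1.62 ± 0.25, adjusted p = 2.7e-05). Sh2d1a, which encodes SAP, the adaptor that SLAM receptors signal through, rose by 0.58 ± 0.10. Cd244a, the SLAM-family receptor 2B4 of NK and effector T cells, lay at 0, 1.69, 0 and 3.46 CPM in members and at 8.11, 7.15, 13.04 and 15.3 CPM in other cells (−2.61 ± 0.56, adjusted p = 0.0028), with no overlap, and its call was lost without row 18 (0.081).

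Pdcd1, the inhibitory receptor PD-1, lay at 28.7, 21.95, 32.8 and 40.3 CPM in members against 13.05, 14, 16.7 and 17.6 CPM (1.05 ± 0.22, edgeR adjusted p = 0.0014). The groups did not overlap, yet the call was lost without row 18 (adjusted p = 0.13). Cd5, a brake on TCR signalling whose level tracks its strength, rose by 0.49 ± 0.07, and Cd160, a receptor for HVEM, by 0.43. Tnfrsf9 (4-1BB) rose by 0.86 and Cd28 by 0.29, calls that were lost without row 12 (adjusted p = 0.065 and 0.096) or row 18 (0.19 and 0.15), and also without row 14 for Tnfrsf9 (0.071) and row 16 for Cd28 (0.070). Cd69, an early activation marker that holds cells in tissue, fell by 0.67, a call lost without row 18 (0.060). In all, 6 of 14 tested costimulatory and checkpoint receptors rose and 1 fell (median 0.28).

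Several genes of the receptor complex rose by small amounts. Cd3e, a signalling chain of the TCR complex, lay at 1449, 1635, 1546 and 1774 CPM in members and at 1256, 1368, 1268 and 1321 CPM in other cells, with no overlap (0.34 ± 0.04, edgeR adjusted p = 3.2e-07). Cd3d rose by 0.32, Cd3g by 0.22 and the kinase gene Zap70, which docks on the phosphorylated chains, by 0.43. Cd247, the ζ chain, rose by 0.36, a call lost without row 12 (adjusted p = 0.20) and without row 18 (0.41), and the phosphatase gene Ptpn6 by 0.24, lost without row 18 (0.065). The coreceptor gene Cd4 was low in both groups, at 36.5, 52.4, 68.4 and 32.3 CPM against 22.6, 27.0, 24.5 and 22.9 CPM, and rose by 0.92 ± 0.19 (adjusted p = 0.0014), with members above other cells in every row.

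Of 19 tested genes of the TCR complex, coreceptors and proximal kinases, 9 rose and none fell (median 0.22), Slamf6 and Sh2d1a, which the list also holds, among them. Over all tested genes 2.27% rose and 1.91% fell. Of 16 tested genes of a list of TCR-induced and ERK kinase feedback genes, 1 rose and none fell (median −0.03). That gene was Dusp2, a MAP kinase phosphatase, which rose by 0.24, a call lost without row 12 (edgeR adjusted p = 0.12) and without row 18 (0.25). The list does not hold Id3, Tox, Bcl2a1b and Bcl2a1d, which antigen receptor signals also induce and which rose in members. None of 9 AP-1 genes was called (median −0.06).

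The last 60 bases of 4 TRBV segments are given because reads from the 5′ end count the V segments, which the gate did not use. The capitals run from the codon of the conserved cysteine, where the CDR3 loop begins, to the end of the segment, and all 4 lie on the plus strand of chromosome 6 (GRCm38) in the V exon of the segment: Trbv13-2 at chr6:41121773-41121832, Trbv29 at chr6:41271822-41271881, Trbv1 at chr6:40891826-40891885 and Trbv13-3 at chr6:41130526-41130585. Trbv13-2, Trbv29 and Trbv1 encode the Vβ8.2, Vβ7 and Vβ2 chains, of which the Vβ8 and Vβ7 chains are the common partners of the invariant α chain.
Trbv13-2: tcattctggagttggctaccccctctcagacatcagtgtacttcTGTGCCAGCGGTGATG
Trbv13-3: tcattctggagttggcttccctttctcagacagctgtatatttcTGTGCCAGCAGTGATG
Trbv29: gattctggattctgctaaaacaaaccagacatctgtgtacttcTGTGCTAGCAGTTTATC
Trbv1: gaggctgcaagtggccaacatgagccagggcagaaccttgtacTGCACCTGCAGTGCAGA
Trbv13-2 and Trbv13-3 differ at 8 of 60 positions here, so reads may be split between the pair with some uncertainty.

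Trbv29, the Vβ7 segment, lay at 62.5, 103, 87.6 and 112 CPM in members and at 30.5, 53.2, 70.4 and 57.5 CPM in other cells (0.89 ± 0.13, edgeR adjusted p = 1.4e-05). It was higher in members within each row, with row 12 members inside the range of the other cells. As a share of all TRBV UMIs it made up 5.18% in members (interval 4.52 to 5.90) and 3.37% in other cells (3.15 to 3.59), and it led the TRBV UMIs of 31 of 463 members with a leading segment (6.70%) against 143 of 3990 other cells (3.58%). Row 16 went the other way in both, with 4.34% of TRBV UMIs in members against 4.64% and 3 of 67 members (4.48%) against 23 of 400 other cells (5.75%). The call was lost without the row block (adjusted p = 0.24) and with a hashtag share of at least 95% (0.38).

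Trbv13-2, the most used segment, made up 49.0% of members' TRBV UMIs and 48.5% of those of other cells, and led in 275 of 463 members (59.4%) and 2429 of 3990 other cells (60.9%). Its level rose by 0.32 ± 0.05 (edgeR adjusted p = 0.00012), from 698, 716, 999 and 1120 CPM in members against 608, 690, 747 and 843 CPM, a call lost without row 18 (0.061). Of 17 tested TRBV segments 2 rose and none fell (median 0.23), of 11 TRAV segments none was called (median 0.39), and of 8 genes of the invariant receptor 2 rose (median 0.28). Trav11 made up 22.7% of members' TRAV UMIs and 22.6% of those of other cells. With its copies Trav11d and Trav11n these shares were 28.8% and 29.0%. Members held 572 TRAV UMIs, and 75 members had a leading TRAV segment. The shares therefore do not give the part of cells that carry the invariant α chain.

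Among cytotoxic granule genes, Gzma, Prf1, Gzmb and Serpinb9 fell and Srgn and Ctla2a rose. Gzma, encoding granzyme A, lay at 20.8, 28.7, 30.1 and 30.0 CPM in members and at 126, 138, 120 and 176 CPM in other cells, and fell by 2.35 ± 0.14 on the log2 scale (edgeR adjusted p = 6.5e-14). It was the largest drop among the genes named by the rule, and no member value came near those of the other cells. Prf1, encoding the pore-forming perforin, lay at 31.3, 38.8, 21.9 and 13.8 CPM against 65.4, 60.7, 46.4 and 54.2 CPM (−1.13 ± 0.19, adjusted p = 0.00015). Gzmb, encoding granzyme B, lay at 214, 214, 276 and 364 CPM against 282, 342, 538 and 571 CPM (−0.64 ± 0.07), lower in members within each row but overlapping between rows.

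Serpinb9, which protects cells from granzyme B, fell by 0.68 ± 0.14, while Srgn, the proteoglycan core of granules, rose by 0.46 ± 0.05 and Ctla2a, a cysteine protease inhibitor, by 0.30, a call lost without row 16 (edgeR adjusted p = 0.060) and without row 18 (0.17). The Serpinb9 call was lost in 4 of 20 alternatives. Altogether 2 of 12 tested cytotoxic granule genes rose and 4 fell (median −0.33).

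Of 16 tested NK receptor and adaptor genes other than the Ly49 family, 8 fell and 2 rose (median −0.62). Klrc1, encoding the inhibitory receptor NKG2A, lay at 65.2, 69.2, 41.0 and 59.9 CPM in members and at 190, 195, 166 and 216 CPM in other cells (−1.67 ± 0.11, edgeR adjusted p = 6.1e-13), with no overlap. Its activating relative Klrc2 fell by 0.83 ± 0.10 and Klre1 by 0.73 ± 0.12. Klrk1, encoding the activating receptor NKG2D, lay at 240, 287, 257 and 258 CPM against 389, 398, 455 and 466 CPM (−0.67 ± 0.07). Styk1, a kinase-like receptor of NK cells, fell by 1.11 ± 0.15, and Klri2, the partner of Klre1, by 1.26, a call lost without row 18 (0.38). Ncr1 (NKp46), a receptor of NK cells, had 0 UMIs in members and 99 in other cells, at least 3.99-fold lower against a floor of 3 counts over the group. Rows 16 and 18 gave nearly all of these UMIs, with Ncr1 at 0.353, 0.893, 11.5 and 17.3 CPM in the other cells of rows 12, 14, 16 and 18.

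Klrb1c departed from this pattern. It was higher in members of rows 12, 14 and 18 (438, 559 and 484 CPM against 378, 419 and 435 CPM) and lower in row 16 (298 against 334 CPM), with a log2 fold change of 0.23 ± 0.07 (edgeR adjusted p = 0.047). Without row 12, 14 or 18 it was not called (adjusted p = 0.19, 0.38 and 0.27). Of 8 tested Ly49 genes, MHC class I receptors found on a part of NK and iNKT1 cells, 2 rose and 1 fell (median 0.09). Klra3 rose by 0.38 (lost without row 12, 14 or 18, at 0.14, 0.12 and 0.11) and Klra6 by 0.78 (lost without row 14, 0.097, and turned to −0.06 within the same range of UMIs per cell), and Klra5 fell by 1.28 (lost without row 18, 0.051).

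**Figure D3:**
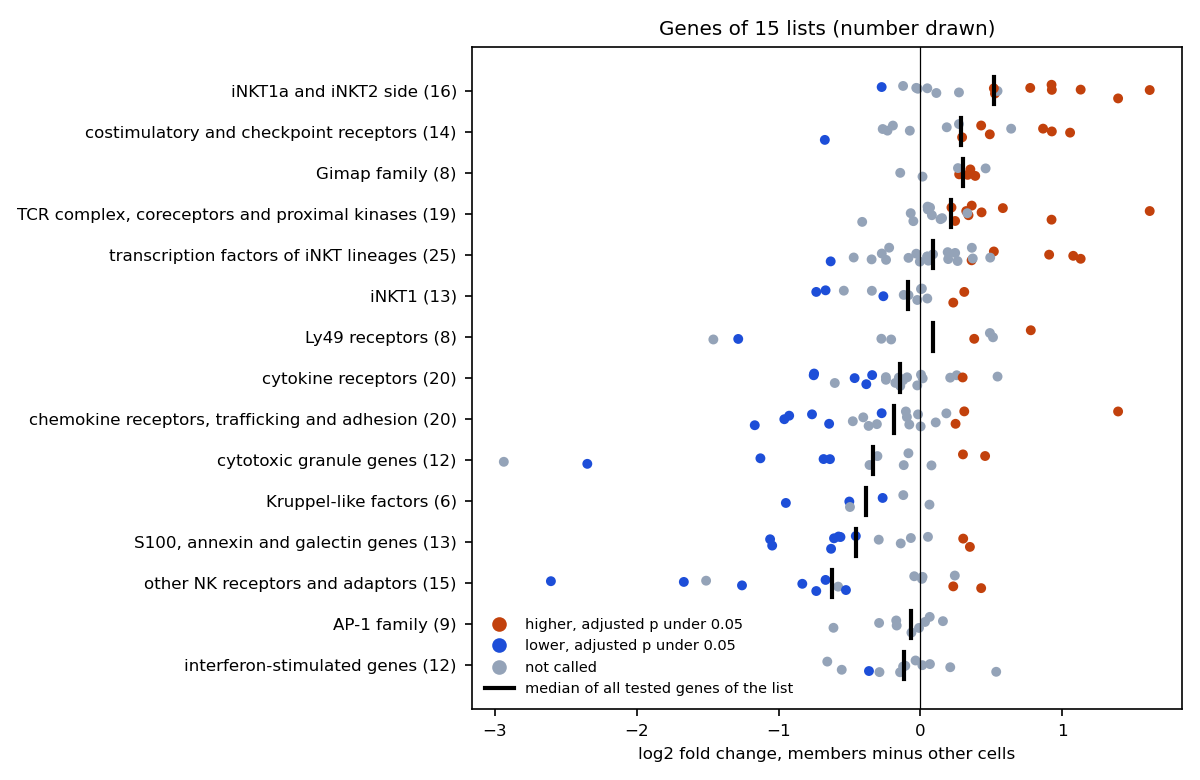
Log2 fold changes of members over other cells for the tested genes of each list, with 1 point a gene, called genes coloured, and a bar at the median of all tested genes of the list. Medians lay at −0.62 for other NK receptors, −0.46 for S100, annexin and galectin genes and −0.33 for cytotoxic granule genes, and at 0.28 for costimulatory receptors and 0.22 for the TCR complex; Ncr1, at 0 in members, is left out.

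Klf2, Klf3 and Klf6 fell among the Krüppel-like factor genes. Klf2, a Krüppel-like factor that drives S1pr1 and thymic exit, lay at 237, 282, 181 and 182 CPM in members and at 444, 485, 378 and 423 CPM in other cells (−0.95 ± 0.08, edgeR adjusted p = 3.6e-11). All member values were under all values of the other cells. Klf3 fell by 0.50, a call lost in 5 of 20 alternatives (highest adjusted p = 0.57), and Klf6 by 0.27, lost in 10 of 20, among them without row 12, 16 or 18 (0.12, 0.19 and 0.19), so that 3 of 6 tested Krüppel-like factor genes fell and none rose (median −0.38). S1pr1, the exit receptor, was not called (−0.48, adjusted p = 0.42).

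S100a6, a calcium-binding protein of mature effector cells, lay at 727, 802, 1004 and 944 CPM in members against 1150, 1155, 1728 and 1473 CPM (−0.61 ± 0.05, edgeR adjusted p = 6.8e-12). S100a4 lay at 91.2, 57.4, 123 and 118 CPM against 136, 158, 269 and 249 CPM (−1.05 ± 0.10). For both genes the members lay below the other cells without overlap. Lgals3, encoding galectin-3, fell by 1.06, and Anxa1, an annexin, by 0.56 (lost without row 14, 0.19, and row 18, 0.38), whereas S100a10 rose by 0.30 and S100a11 by 0.35. The call of S100a10 was lost in 4 of 20 alternatives, and that of S100a11 was kept in all 20. Over the list, 7 of 13 S100, annexin and galectin genes fell and 2 rose (median −0.46).

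Itga4, the α4 chain of VLA-4, fell by 1.17, Itgb1, its β1 partner, by 0.96 and Itga1, a collagen-binding chain, by 0.93. Cxcr6, the receptor that brings iNKT cells to the liver, fell by 0.76 ± 0.08. Itgae (CD103) fell by 0.64, a call lost without row 18 (edgeR adjusted p = 0.090), and Ccr4, a receptor of type 2 T cells, rose by 1.39, lost without row 18 (0.39). Cxcr3, the receptor of type 1 T cells, rose by 0.31, lost without row 12 (0.067) or row 18 (0.18). Of 20 tested chemokine receptor, trafficking and adhesion genes 3 rose and 6 fell (median −0.19).

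Of 20 tested cytokine receptor genes, 5 fell and 1 rose (median −0.15). Ifngr1, the interferon-γ receptor chain, lay at 250, 307, 257 and 276 CPM in members and at 446, 457, 443 and 533 CPM in other cells (−0.75 ± 0.07, edgeR adjusted p = 1.4e-09). Il7r, the receptor for the survival cytokine IL-7, lay at 560, 752, 635 and 693 CPM against 845, 860, 856 and 895 CPM (−0.34 ± 0.05). Neither gene overlapped between the groups. Il18r1 fell by 0.46 ± 0.09, a call lost in 4 of 20 alternatives. Bcl2, an inhibitor of apoptosis downstream of IL-7, lay at 93.8, 128, 98.5 and 103 CPM against 164, 171, 159 and 173 CPM (−0.61 ± 0.10, adjusted p = 6.4e-05), also without overlap. Its relatives Bcl2a1b and Bcl2a1d, which antigen receptor signals induce, rose by 0.53 and 0.44, the first called in all 20 alternatives and Bcl2a1d lost in 6 of them (highest adjusted p = 0.33). Of 12 tested survival and apoptosis genes, 3 rose and 1 fell (median −0.09).

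The remaining genes with large changes had mixed roles. Ephx1, encoding microsomal epoxide hydrolase, lay at 198, 194, 211 and 203 CPM in members and at 76.0, 89.6, 80.8 and 109 CPM in other cells (1.18 ± 0.10, edgeR adjusted p = 4.5e-11). Ramp1, part of the receptor for the neuropeptide CGRP, lay at 268, 257, 279 and 365 CPM against 122, 161, 144 and 194 CPM (0.94 ± 0.08, adjusted p = 9.1e-11), and Cmtm7 at 182, 130, 200 and 206 CPM against 86.6, 92.5, 96.0 and 91.2 CPM (1.00 ± 0.10). None of these 3 overlapped between the groups. Hivep3, a zinc finger factor, rose by 1.03 ± 0.16. Among genes that fell were Tsc22d3 (GILZ), a target of glucocorticoids and FOXO factors, by 1.53 ± 0.17, Kcnj8, a potassium channel gene, by 1.44 ± 0.20, Gramd3 by 1.61 ± 0.22, Jaml by 1.12 ± 0.18 and Glipr2 by 1.10 ± 0.17.

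Ribosomal, metabolic and Gimap genes that were called rose, by small amounts. Of 89 ribosomal protein genes 20 rose and none fell (median 0.07), and of 14 energy metabolism genes 5 rose (median 0.08), among them the glycolysis genes Gapdh by 0.25 and Pgk1 by 0.39. Gimap genes, small GTPases of lymphocyte survival, rose in 4 of 8 cases (median 0.30): Gimap4 by 0.35, Gimap1 by 0.27, Gimap5 by 0.39 and Gimap6 by 0.33, the last 3 lost without row 18 (edgeR adjusted p = 0.23, 0.13 and 0.13) and Gimap1 also without row 12 (0.071) or row 16 (0.090). Of 12 S phase genes 2 rose (median 0.18): Mcm6 by 0.35, lost without row 12, 16 or 18 (0.24, 0.21 and 0.081), and Ung by 0.87, lost without row 12 (0.062) or row 18 (0.26). Ccnb1 alone of 10 G2/M genes rose, by 0.98 (median 0.29), lost without row 14, 16 or 18 (0.11, 0.18 and 0.28). No gene was called among 12 nucleolar genes (median 0.09), 8 quiescence regulators (median 0.10) and 13 mitochondrially encoded genes (median −0.09), and 1 of 12 interferon-stimulated genes fell (median −0.11).

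Markers of other cell types were read in the same fit. The 9 myeloid markers summed to 621 to 743 CPM in members and to 822 to 1200 CPM in other cells, and 4 of the 5 that were tested fell (median −1.09). Large parts of these sums were Cst3 (220 to 261 CPM in members, 246 to 358 CPM in other cells) and Fcer1g (183 to 346 and 414 to 474 CPM). The sums are therefore not a measure of myeloid RNA alone. Lyz2, lysozyme of macrophages, lay at 5.21, 3.38, 13.7 and 1.15 CPM against 13.8, 5.36, 26.1 and 36.9 CPM (−2.22 ± 0.42, edgeR adjusted p = 0.00072; without row 18, 0.47). The class II genes H2-Ab1 and H2-Aa fell by 1.25 and 1.09 (H2-Aa lost without row 16, 0.11, and H2-Ab1 in 5 of 20 alternatives, highest adjusted p = 0.53), and Fcer1g, which NK cells also use, by 0.53 (lost without row 18, 0.20). Itgax had 0 UMIs in members. B cell markers summed to 265 to 391 CPM in members and 299 to 478 CPM in other cells, and none of 5 was called (median −0.62), with Cd79a at 46 UMIs over all members. With all cells holding at least 2 UMIs of B cell or myeloid markers left out of both groups, 268 genes were called, 218 of them shared with the 387.

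Markers of other T cell fates were mostly low. Both tested iNKT17 genes, Tmem176a and Tmem176b, fell (median −1.88), and Il17f and Il17re had 0 UMIs in members. Of 5 tested regulatory, anergic and follicular T cell genes none was called (median −0.09), although FR4 is used to mark such cells. Foxp3 had 2 UMIs and Cxcr5 1 UMI over the 538 members, and they had 9 and 18 UMIs over the 5220 other cells, so both were low in both groups. Among 9 stage 0 and DP thymocyte genes Itm2a rose, by 0.57 ± 0.10 (edgeR adjusted p = 0.00010), and none fell (median −0.17), while Ptcra had 0 UMIs. Of 5 γδ T and NK cell genes 1, Ncr1, fell (median −0.58). Of 64 tested immunoglobulin genes 1 fell (median −0.19), against 1.91% of all tested genes.

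Members were next set against 3 narrower groups of the same rows, which reuse the member sums, so that these comparisons are not independent of one another. Against 2341 cells with 0 UMIs of both gating genes, 510 of 8438 genes were called (6.04%), 293 higher and 217 lower. Against 904 cells with at least 4 Ccl5 UMIs and 0 Izumo1r UMIs, 449 of 7293 were called (6.16%), 202 higher and 247 lower. Against 187 cells that also had at least 2 Izumo1r UMIs but held Ccl5, 4 of 5834 were called (0.0686%), 1 higher and 3 lower, and 322 had an unadjusted p under 0.05; DESeq2 called 0. Without row 18 the first 2 counts became 160 and 223, and without row 14 or row 16 the last became 0 and 2.

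Values for Zbtb16, Icos, Ephx1, Klf2, S100a6 and Gzma ran in order over these groups. The log2 fold change of Zbtb16 in members was 1.19 against the cells with neither gene, 2.02 against the Ccl5-high cells and 0.23 against the Izumo1r-high Ccl5-positive cells. For Icos these values were 0.89, 1.52 and 0.07, and for Ephx1 1.24, 2.19 and 0.06. Of genes lower in members, Klf2 stood at −0.89, −1.54 and 0.01, S100a6 at −0.51, −1.15 and 0.06, and Gzma at −1.86, −3.71 and −0.83 (the last with edgeR adjusted p = 0.71). Not all genes followed this order. Cd3e stood at 0.40, 0.33 and 0.08, and Nrgn differed less between the comparisons, at 1.75, 1.76 and 1.43. For Zbtb16, Icos, Ephx1, Klf2, S100a6 and Gzma no difference from the Izumo1r-high Ccl5-positive cells was called, which does not show that the groups were alike, as the latter held few cells. The genes called there were Nrgn, higher by 1.43, and Klrc1, lower by 1.12 (adjusted p = 0.00020), with a TRBV segment and an unannotated transcript also lower.

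**Figure D4:**
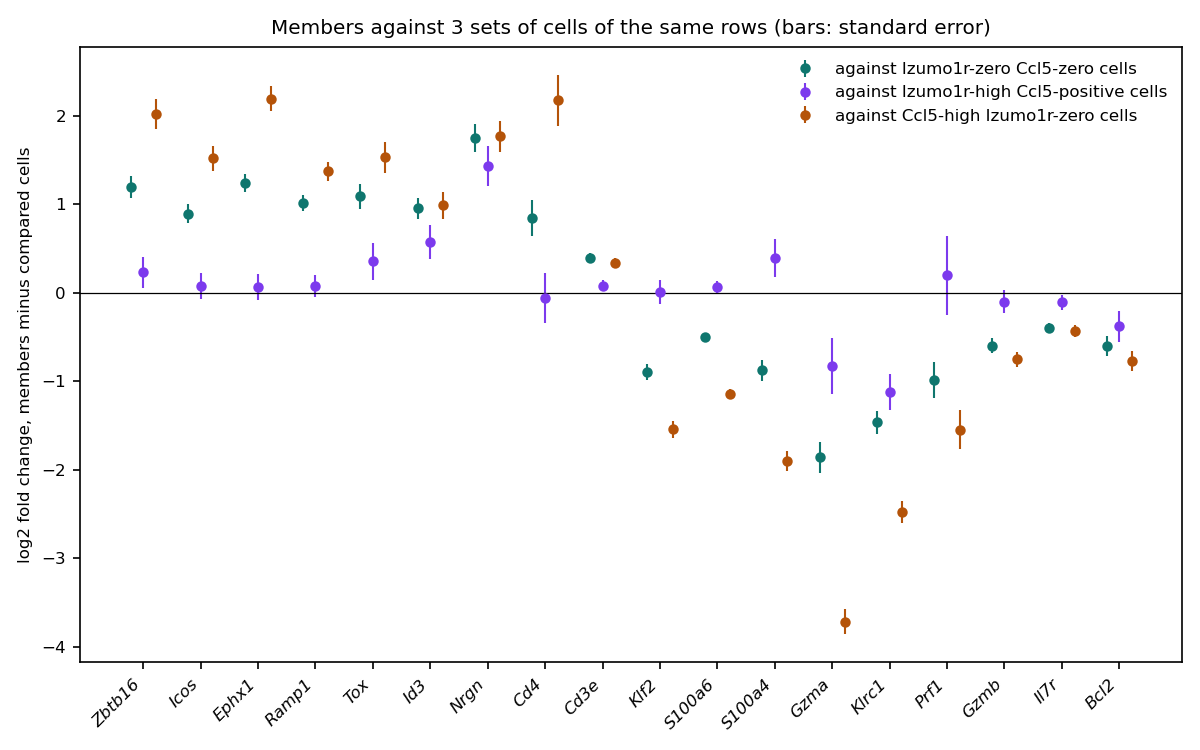
Log2 fold changes of members over 3 groups of cells of the same rows (neither gating gene, Ccl5-high without Izumo1r, and Izumo1r-high with Ccl5) for named genes, with bars of 1 SE. Zbtb16 stood at 1.19, 2.02 and 0.23 and Klf2 at −0.89, −1.54 and 0.01, so that most values were nearest to 0 against the Izumo1r-high Ccl5-positive cells.

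The levels just inside and just outside the gate are given as a description. In Ccl5-negative cells with 0, 1, 2, 3 and at least 4 Izumo1r UMIs (2341, 687, 274, 117 and 147 cells), the median Zbtb16 level over the 4 rows was 54.9, 90.9, 114, 101 and 170 CPM. Ephx1 lay at 89.6, 133, 156, 189 and 258 CPM, Icos at 108, 132, 172, 147 and 236 CPM and Klf2 at 436, 326, 243, 200 and 162 CPM. Cells with 1 Izumo1r UMI, just outside the gate, thus lay between cells with 0 and members in these 4 genes. Nrgn and Slamf6 were not graded in this way. Nrgn lay at 36.4, 42.1, 42.3, 26.4 and 290 CPM over the 5 steps and Slamf6 at 9.05, 12.8, 9.23, 36.6 and 61.1 CPM. For both, the median of members with 2 Izumo1r UMIs was near that of cells with 0. Among Izumo1r-high cells just outside on the other side, with 1 Ccl5 UMI (102 cells), Zbtb16 lay at 119 CPM and Klf2 at 148 CPM. Klrb1c ran at 399, 421, 411, 507 and 519 CPM over the 5 steps. Cells of more UMIs reach a higher step more readily, and the part of depth in this order was not tested.

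**Figure D5:**
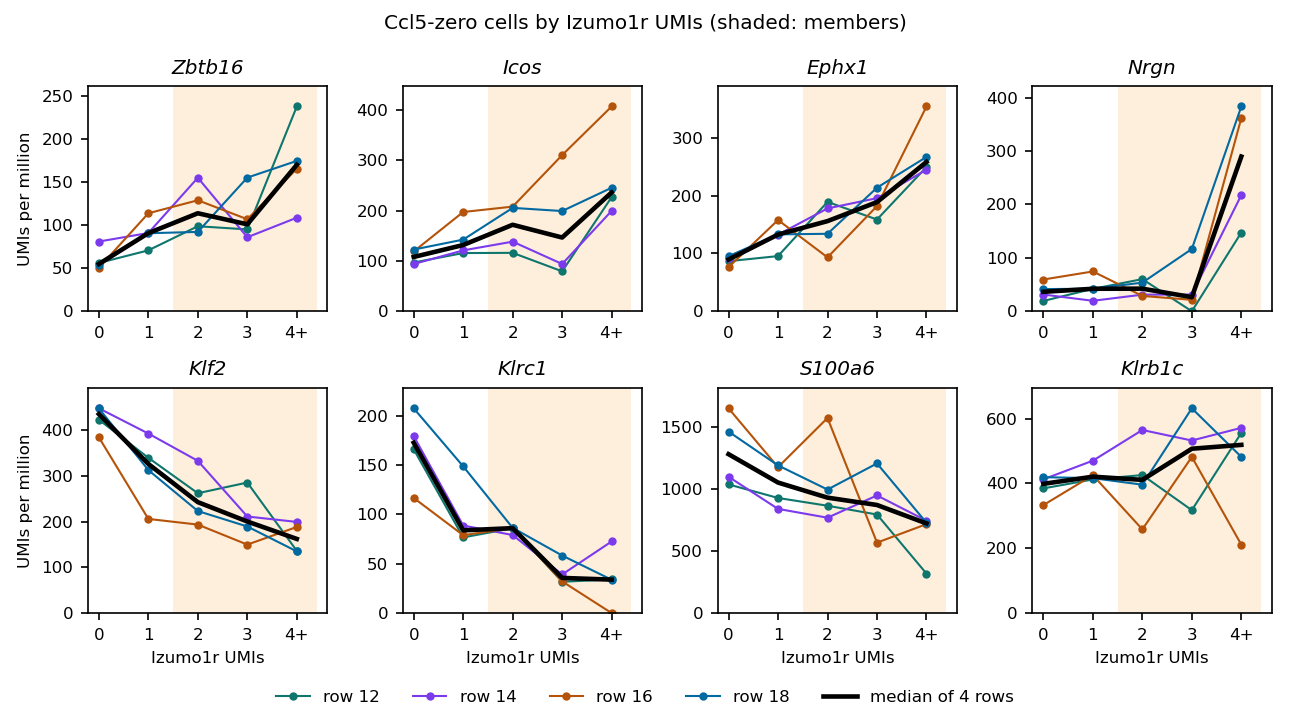
Level in CPM of 8 genes in Ccl5-negative cells grouped by their Izumo1r UMIs, with a thin line for each row, a thick line for the median of the 4 rows and the member steps shaded. From 0 to at least 4 Izumo1r UMIs in Ccl5-negative cells, Zbtb16 went from 54.9 to 170 CPM and Klf2 from 436 to 162 CPM.

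After thinning to 2000 UMIs, which left out 14 members and 538 other cells, a Zbtb16 UMI was found in 25.8%, 22.8%, 22.5% and 20.2% of members in rows 12, 14, 16 and 18 and in 11.3%, 12.4%, 13.2% and 9.48% of other cells. The unthinned shares were 36.4% and 18.3%, and the thinned share in the B cells, which should lack it, was 0.133%. For Icos the median over rows was 29.3% of members and 18.1% of other cells (unthinned 45.4% and 26.1%, B cells 0.928%), and for Klf2 it was 27.6% and 50.1% (unthinned 40.5% and 61.8%; B cells, which use Klf2, 28.4%). Most members therefore had no Zbtb16 UMI at this depth. Of 524 thinned members, 51 held both Zbtb16 and Icos: Icos was found in 43.6% of the 117 with Zbtb16 and in 26.04% of the rest. Between the same sets Il4 was found in 12.8% and 7.37%, Nrgn in 15.4% and 11.5% and Gzma in 5.13% and 6.63%.

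Nrgn, encoding the calmodulin-binding protein neurogranin, had the highest fold change among the genes named by the rule and was spread unevenly over members. It lay at 70.4, 65.9, 148 and 193 CPM in members and at 25.04, 24.6, 68.3 and 53.0 CPM in other cells (1.59 ± 0.13, edgeR adjusted p = 8.1e-11), higher in every row, with row 14 members below the other cells of row 16. Of the 538 members, 18 (3.35%) held at least 5 Nrgn UMIs, namely 1, 2, 5 and 10 cells of rows 12, 14, 16 and 18, and these held 171 of the members' 287 Nrgn UMIs (59.6%). Among the other cells 14 of 5220 (0.268%) held as many. These 18 members, at a median of 5584.5 UMIs, carried Tox at 340 CPM against 83.0 CPM in the other members, Id3 at 404 against 115 CPM, Zbtb16 at 299 against 125 CPM, and Klrb1c at 226 against 480 CPM. They held Ikzf2 at 80.9 against 50.8 CPM and Cd24a at 8.09 against 17.7 CPM, from 10 and 1 UMIs. With all cells of at least 5 Nrgn UMIs left out, Nrgn was still called, at 0.84, and 384 genes were called, 344 of them among the 387.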

How the data were processed

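The deposited values are UMI counts for each barcode, over genes and hashtags, made by the authors with Cell Ranger 6.0.0 against its prebuilt mouse mm10 reference, not normalized and before the study's own filters (16179 barcodes, 85673127 gene UMIs, no repeated barcode). From these, 12147 barcodes had at least 1000 genes and at most 5% mitochondrial UMIs, and 10007 had at least 80% of at least 10 hashtag UMIs on 1 of rows 11 to 18. This removes cells in which no row dominates, but kept cells can still hold hashtag UMIs of other rows. At a share of at least 95%, 19 of the 72 members of row 16 were left. No doublet caller was run. Members, gene lists and tests were chosen with earlier results of these data known.

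Counts were summed per row and cell group (365478 to 867447 UMIs in members, 1917684 to 6716057 in other cells) and tested with edgeR 4.0.16 in R 4.3.3: TMM, filterByExpr, robust quasi-likelihood fit, row as a block, Izumo1r and Ccl5 left out. SE is the log2 fold change divided by the square root of F. Tested on simulated data, the fit recovered 64.8% of 1.5-fold, 95% of 2-fold and 100% of 4-fold changes, with 5, 7 and 4 false calls. Only genes of at least 20 CPM were changed there, and members and other cells of a row shared the same row effect. Recovery at lower levels was not tested. Named by rule were the 15 highest and 15 lowest called genes with 1 direction in all 4 rows and a mean of at least 20 CPM, besides genes of 35 lists. Intervals are exact (scipy 1.17.1) and cover counting error. Segment coordinates come from GENCODE M21 on GRCm38. Alternatives were DESeq2 1.42.0, RLE, no filter, no row block, other gates and cell filters, equal depth and leaving out each row. Cells of no hashtag row were not analysed here. The values of 1 gene are not reported here.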

Additional observations from a re-analysis of the deposited data

Results flagged for a closer look

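Each named gene's log2 ratio of members to other cells (10 CPM added to both) was checked for a row far from the others, a check that chance meets in about 1 in 20 groups. The lowest ratio of Gm8369, 0.53, was in row 14, and the highest of Gramd3, −0.85, was also in row 14. Outside the 4 rows, 126 cells of rows 11, 13, 15 and 17 passed the same gate (41 of 1176, 46 of 1601, 21 of 889 and 18 of 583 cells), with Nrgn at 1517 to 2040 CPM, Ikzf2 at 542 to 708 CPM, Klrb1c at 0 to 15.2 CPM, Zbtb16 at 49.3 to 135 CPM and Foxp3 at 0 to 3.79 CPM.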

How the results depend on the processing

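Against all other cells, 387 genes were called, and 138 with DESeq2, 141 without the row as a block (no replicate block), 865 with a filter of 500 genes and 10% mitochondrial UMIs, 142 with a hashtag share of 95%, 154 within the middle range of members' UMIs per cell (25th to 75th percentile), 188 after thinning, and 145 (without row 18) to 416 when each row was left out. The other alternatives gave 268 to 517. Against cells with neither gene the count of 510 became 169 with DESeq2, 128 at equal depth, 129 after thinning and 160 to 542 without 1 row. Against Ccl5-high cells 449 became 148, 276, 274 and 223 to 390, and against Izumo1r-high Ccl5-positive cells 4 became 0, 2, 0 and 0 to 3 in the same order, with 0 without row 14 and 2 without row 16. The cause was not tested, save that fewer cells or rows entered several of these. Of 104 called genes followed singly, 97 were tested in all 20 alternatives and 23 of these kept call and direction in all; of the 7 tested in fewer, 1 did in those run. Direction was kept by 102 wherever tested. Calls were lost most often without the row block (62 genes), without row 18 (39), at a 95% hashtag share (38), at equal depth (35), after thinning (34) and with DESeq2 (32). The direction turned for Ccl4 with a gate of 1 Izumo1r UMI (0.30) and for Klra6 at equal depth (−0.0628). Of uncalled genes, Gata3 turned to 0.0542 with that gate and 0.0019 with the looser cell filter, ranged from −0.0719 to 0.0420 without 1 row (above 0 without row 14), and Tbx21 turned to 0.0302 after thinning. Among the alternatives, cells with at least 3 iNKT1 marker UMIs (323) and no cells of at least 5 Nrgn UMIs (384), were chosen after seeing the data.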
